A study of Mus musculus with 9 samples.

Results

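The steroid-metabolising enzymes described here are 7 genes of mouse liver, namely Hsd3b2, Hsd3b3, Hsd3b5, Cyp17a1, Hsd11b1, Hsd17b2 and Srd5a1. A gene was represented by every probe set whose annotation names that gene alone. Under this rule 6 of the 7 genes were measured, each by 1 probe set, out of 12393 genes with such a probe set, and Srd5a1 was not analysed here. The genes were chosen from the measured values of these same arrays in all 3 group comparisons, so their differences are given as a description. Calls from the fit over the whole table, and their changes with the processing, are counted for these genes, and nothing rests on them. All 6 probe sets passed the filter on dim signals.

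Livers were compared among 3 groups with 3 arrays each. NT-Co mice carried no tumour and received vehicle. T-Co mice carried the human colon cancer TK-4, implanted in the wall of the cecum, and received vehicle. T-TSU mice carried the same tumour and received TSU68, an oral inhibitor of the VEGF, PDGF and FGF receptor tyrosine kinases, at 400 mg/kg/day. The tumour was implanted at 6 weeks of age in males of the athymic strain BALB/c nu/nu, which largely lacks mature T cells. Dosing began 7 days after implantation and ran for 1 week before the liver was taken. The strain, sex and age of the tumour-free mice are not given separately, no sham operation is described, and the hour of sampling and feeding state are not given. The tumour and the implantation therefore cannot be told apart. Livers of tumour-free mice given TSU68 were not analysed here. Values are array intensities after the authors' scaling, differences are in log2(intensity + 7.92), and errors are SD over 3 arrays or SE of the fitted difference.

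The liver inactivates circulating steroid hormones by reducing, oxidising, hydroxylating and conjugating them. Enzymes of the 3-beta-hydroxysteroid dehydrogenase (Hsd3b) family act on the steroid A ring. Some convert pregnenolone-type steroids to progesterone-type steroids, whereas mouse Hsd3b5 works mainly as a reductase of active androgens and is known as a male-enriched liver transcript. Cyp17a1 is the 17-alpha-hydroxylase and 17,20-lyase that leads from progestogens to androgens and is best known from the gonad. Hsd11b1 regenerates active glucocorticoid from its inert 11-keto form inside hepatocytes. Hsd17b2 oxidises estradiol and testosterone to less active forms, and Srd5a1 is a steroid 5-alpha-reductase.

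The 3 Hsd3b genes lie next to one another on chromosome 3 within 146 kb, all on the minus strand, in the RefSeq annotation of build GRCm38.p6. Hsd3b5 spans chr3:98618636-98645534, Hsd3b2 spans chr3:98711107-98724543 and Hsd3b3 spans chr3:98741476-98764540. The other members lie elsewhere, with Hsd11b1 at chr1:193221640-193264045, Hsd17b2 at chr8:117700982-117759030 and Cyp17a1 at chr19:46667165-46673000. The promoters of the 3 clustered genes are printed because these genes were lower together in the T-Co arrays by very different amounts. Each runs 5′ to 3′ from 250 bases before to 50 bases after the RefSeq start, at chr3:98645485-98645784 for Hsd3b5, chr3:98763079-98763378 for the first of 2 starts of Hsd3b3, and chr3:98724494-98724793 for Hsd3b2. Capitals mark the longest run that Hsd3b5 and Hsd3b3 share, the longest run that Hsd3b2 shares with Hsd3b5 (shown in Hsd3b2), and the match to an HNF4-type motif.
Hsd3b5: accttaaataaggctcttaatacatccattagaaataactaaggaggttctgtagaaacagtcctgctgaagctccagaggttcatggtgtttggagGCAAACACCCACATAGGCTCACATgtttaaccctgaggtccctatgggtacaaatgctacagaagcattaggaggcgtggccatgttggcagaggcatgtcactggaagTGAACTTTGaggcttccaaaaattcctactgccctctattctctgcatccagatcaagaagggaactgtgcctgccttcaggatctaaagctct
Hsd3b3: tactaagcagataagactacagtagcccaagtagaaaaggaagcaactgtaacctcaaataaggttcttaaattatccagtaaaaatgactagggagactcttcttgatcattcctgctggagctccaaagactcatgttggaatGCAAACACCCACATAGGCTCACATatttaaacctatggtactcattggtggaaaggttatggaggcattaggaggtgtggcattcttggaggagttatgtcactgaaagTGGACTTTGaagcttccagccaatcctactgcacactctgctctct
Hsd3b2: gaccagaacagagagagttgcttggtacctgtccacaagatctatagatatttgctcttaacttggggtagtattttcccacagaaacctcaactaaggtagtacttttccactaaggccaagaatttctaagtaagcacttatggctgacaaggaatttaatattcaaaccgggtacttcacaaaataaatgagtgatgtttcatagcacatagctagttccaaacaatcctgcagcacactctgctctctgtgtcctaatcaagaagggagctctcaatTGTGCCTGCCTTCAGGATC

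Hsd3b5 and Hsd3b3 had the more alike promoters, with 188 identical bases in the 250 columns of their best local alignment (75.2%). Hsd3b5 against Hsd3b2 gave 153 of 295 columns (51.9%), and Hsd3b3 against Hsd3b2 gave 138 of 275 columns (50.2%). Aligned over their full length, the same pairs were 54.1%, 50.2% and 45.0% identical, in that order. The unlinked promoters of Hsd11b1 and Hsd3b5 were 50.2% identical in the same way, so only the first pair exceeded that level. The run GCAAACACCCACATAGGCTCACAT, 24 bases long, began 153 bases before the start in Hsd3b5 and 105 bases before it in Hsd3b3. Motifs were searched by exact letters on both strands. The HNF4-type letters CAAAGTCCA, chosen after the promoters had been seen, matched Hsd3b3 at positions 5 to 13 after the start and 0.475% of the 32851 promoters in the table. Their variant CAAAGTTCA matched Hsd3b5 at 44 to 36 bases before the start and 0.39% of promoters. The STAT letters TTCNNNGAA (8.3% of promoters), the D-box letters TTATGTAA (0.938%) and TTACGTAA (0.119%) and the TATA letters TATAAA (13.6%) had no match in these 3 windows, which says only that the letters are not there. No 2 of these motifs overlapped in the 3 windows.

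Hsd3b5 was the member with the widest range. On the NT-Co arrays its intensity was 7088 (replicate 8), 9503 (replicate 10) and 9557 (replicate 11), a mean of 8716 ± 1410.0 (SD, n = 3). On the T-Co arrays it was 350 (replicate 9), 476 (replicate 10) and 61.1 (replicate 13), a mean of 296 ± 213. On the T-TSU arrays it was 8127 (replicate 2), 1253 (replicate 12) and 4920 (replicate 14), a mean of 4767 ± 3439. All T-Co arrays lay below all the others, and T-TSU ran from well below to within the NT-Co range. The log2 difference of T-Co from NT-Co was −5.24 ± 0.69 (SE), or 37.8-fold lower, and 20.8-fold lower without T-Co replicate 13. T-TSU was 16.2-fold higher than T-Co (log2 difference 4.01 ± 0.69), and this was 8.88-fold without T-Co replicate 13 and 27.7-fold without T-TSU replicate 12. T-TSU was 2.34-fold lower than NT-Co (−1.22 ± 0.69), and 1.37-fold lower without T-TSU replicate 12.

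Hsd3b3, whose probe set is of the kind that can also bind related transcripts, had the same order of groups with smaller steps. Its intensity was 8310, 7166 and 7373 on NT-Co replicates 8, 10 and 11, with a mean of 7616 ± 609. It was 3445, 2440 and 1671 on T-Co replicates 9, 10 and 13, with a mean of 2519 ± 890. It was 5953, 3348 and 6036 on T-TSU replicates 2, 12 and 14, with a mean of 5113 ± 1528. NT-Co lay above both tumour groups, while the lowest T-TSU array (3348) lay just under the highest T-Co array (3445). T-Co was 3.14-fold lower than NT-Co (−1.65 ± 0.26), and T-TSU was 2.04-fold higher than T-Co (1.03 ± 0.26).

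Hsd3b2 differed from its neighbours in how closely the treated arrays matched the tumour-free ones. Its NT-Co values were 1079, 708 and 867 (mean 885 ± 186), its T-Co values 368, 372 and 254 (331 ± 67.2) and its T-TSU values 906, 813 and 842 (853 ± 47.6), in the same order of replicates. The T-Co arrays lay below both other groups, and the T-TSU values all fell inside the NT-Co range. T-Co was 2.63-fold lower than NT-Co (−1.39 ± 0.19) and T-TSU was 2.57-fold higher than T-Co (1.36 ± 0.19), whereas T-TSU and NT-Co differed by −0.03 ± 0.19 on the log2 scale. The annotation gives 2 further probe sets to 3 Hsd3b-family genes at once. One was dim, at 21.9 ± 11.6, 13.9 ± 17.1 and 8.61 ± 5.25 in NT-Co, T-Co and T-TSU, and lay under the filter. The other read 4693 ± 215, 1718 ± 410 and 3316 ± 771 in the same order. Signal shared among these paralogs cannot be separated from the separate genes' own signal on this array.

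Cyp17a1 was the only member higher in T-Co than in NT-Co. Its intensity was 185, 93.7 and 82.6 on the NT-Co arrays (mean 121 ± 56.4), 796, 1081 and 2647 on the T-Co arrays (1508 ± 996) and 126, 399 and 132 on the T-TSU arrays (219 ± 156). All T-Co arrays exceeded all the others, and T-TSU overlapped NT-Co. T-Co was 10.9-fold higher than NT-Co (3.45 ± 0.49), and T-TSU was 6.73-fold lower than T-Co (−2.75 ± 0.49). T-TSU and NT-Co differed by 0.70 ± 0.49. Leaving out any 1 array moved the T-Co to NT-Co fold between 7.72 and 14.0 and the T-Co to T-TSU fold between 4.75 and 9.69. A list of 10 markers of adrenal cortex and gonad was examined, of which 7 had a probe set and 4 of these lay under the filter. Their summed intensity was 209 to 368 on NT-Co arrays, 156 to 334 on T-Co arrays and 283 to 330 on T-TSU arrays, and the part of such tissue in the Cyp17a1 values was not tested. Of the single markers, Cyp11a1, which makes pregnenolone from cholesterol, read 2.57 to 6.93 on the 9 arrays, under the filter intensity of 36.2. Star (8.75 to 136), Cyp21a1 (11.3 to 107) and Inha (20.7 to 93.8) passed the filter. Nr5a1, under the filter by its mean, read 10.7 to 105.

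**Figure D1:**
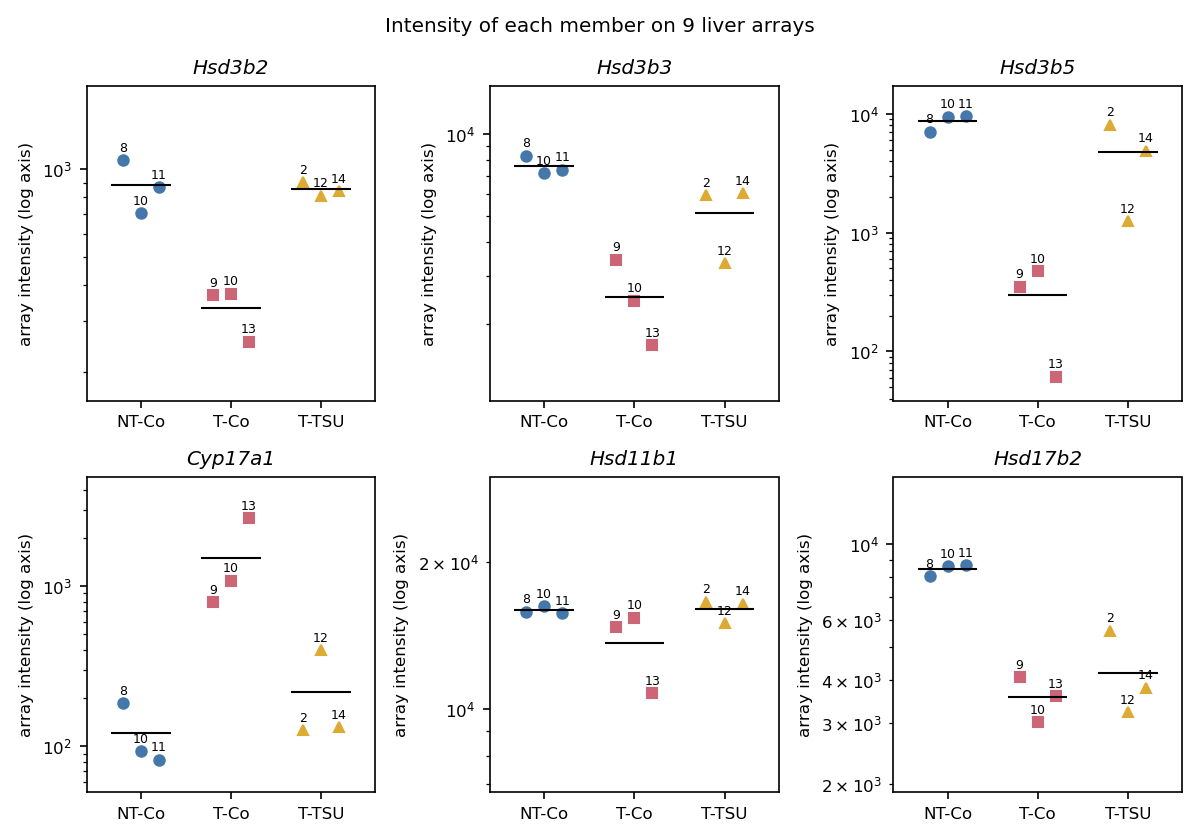
Array intensity (log axis) of each measured enzyme on the 9 liver arrays, with the replicate number at each point and a bar at the group mean. Hsd3b5 is lowest (61.1) and Cyp17a1 highest (2647) on T-Co replicate 13, and the T-Co arrays lie apart from NT-Co in all 6 panels.

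Hsd17b2 was lower in both tumour-bearing groups. Its intensity was 8039, 8623 and 8669 on the NT-Co arrays (mean 8444 ± 352), 4092, 3017 and 3590 on the T-Co arrays (3566 ± 538) and 5583, 3234 and 3808 on the T-TSU arrays (4208 ± 1224). Every tumour-bearing array lay below every NT-Co array, and the T-TSU range enclosed most of the T-Co range. T-Co was 2.38-fold lower than NT-Co (−1.25 ± 0.18) and T-TSU was 2.06-fold lower than NT-Co (−1.04 ± 0.18). T-TSU differed from T-Co by 0.21 ± 0.18, which became −0.01 without T-TSU replicate 2.

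Hsd11b1 was bright in all groups and differed least of the 6 from NT-Co in both tumour-bearing groups. The NT-Co arrays read 15824, 16248 and 15710 (mean 15927 ± 284), the T-Co arrays 14696, 15387 and 10760 (13614 ± 2496) and the T-TSU arrays 16591, 14984 and 16444 (16006 ± 889). The T-Co arrays lay below all NT-Co arrays, but T-Co replicate 13 alone was far below. The log2 difference of T-Co from NT-Co was −0.24 ± 0.13, and −0.08 without T-Co replicate 13.

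**Figure D2:**
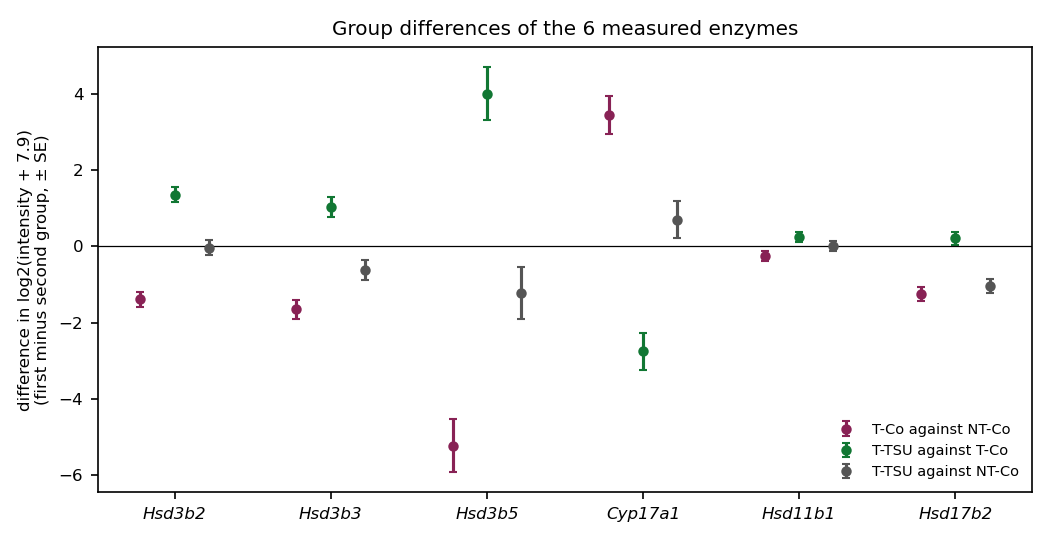
Difference in log2(intensity + 7.92) between group means for the 6 measured enzymes, with bars of ± 1 SE of the fit. Hsd3b5 lies furthest below 0 for T-Co against NT-Co (−5.24), Cyp17a1 furthest above (3.45), and the T-TSU against T-Co differences of Hsd17b2 (0.21) and Hsd11b1 (0.25) are the smallest.

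The median log2 difference of the 6 enzymes was −1.32 for T-Co against NT-Co, 0.64 for T-TSU against T-Co and −0.33 for T-TSU against NT-Co, beside 0.01, −0.01 and 0.00 over all 15838 probe sets tested. The T-Co arrays enter both of the first comparisons, so a value high or low in T-Co appears in both with opposite sign. At an adjusted p under 0.05 in limma over the whole table, 1 of 6 enzymes was called higher in T-Co than in NT-Co (Cyp17a1; 4.16% of all probe sets were called higher). A further 4 were called lower (the 3 Hsd3b genes and Hsd17b2; 2.38% of all). All 6 had no overlap between the groups, against 26.9% of all probe sets. For T-TSU against T-Co, 1 enzyme was called higher (Hsd3b2; 0.0379% of all) and 0 lower (0.0126% of all), and 3 did not overlap (14.1% of all). For T-TSU against NT-Co, 0 were called higher (2.49% of all) and 1 lower (Hsd17b2; 1.36% of all), and 2 did not overlap (24.2% of all). The enzymes were chosen on these contrasts, so their counts are not read against these shares. The Hsd3b2 call for T-TSU against T-Co was lost when NT-Co replicate 8 or 11 was left out, and likewise for T-Co replicate 13 and T-TSU replicates 2 and 14, with adjusted p between 0.0514 and 0.200. Without T-TSU replicate 12, Hsd3b2, Hsd3b3 and Hsd3b5 were called higher and Cyp17a1 lower, where 35 probe sets were called higher and 23 lower in all. Of all arrays left out singly, this one gave the most calls over the whole table for T-TSU against T-Co.

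Arrays within a group differed as well. T-Co replicate 13 had the lowest Hsd3b5, Hsd3b3, Hsd3b2 and Hsd11b1 of all 9 arrays and the highest Cyp17a1. T-TSU replicate 12 had the lowest value of its group for all 3 Hsd3b genes, Hsd11b1 and Hsd17b2 and the highest for Cyp17a1. Among NT-Co arrays, replicate 8 likewise had the lowest Hsd3b5 and Hsd17b2 and the highest Cyp17a1. It also had the highest Hsd3b2 and Hsd3b3, so these did not go with Hsd3b5 there. Over the 9 arrays, Hsd3b5 and Cyp17a1 had a Pearson r of −0.984 on the log2 scale, and −0.903 for deviations from the group means. The corresponding values were 0.960 and 0.839 for Hsd3b5 with Hsd3b3, 0.921 and 0.547 for Hsd3b5 with Hsd3b2, and 0.843 and 0.885 for Hsd3b5 with Hsd11b1. Hsd3b3 with Cyp17a1 had −0.952 and −0.818, and Hsd3b2 with Hsd3b3 had 0.883 and 0.633. Deviations from the group means went together least for Hsd17b2 with Hsd3b2 (0.576 and 0.047) and Hsd17b2 with Hsd11b1 (0.396 and 0.102). Next came Hsd3b2 with Cyp17a1 (−0.894 and −0.290). These values describe 9 arrays that share the group differences, and T-Co replicate 13 and T-TSU replicate 12 deviated furthest from their group means for Hsd3b5 and Cyp17a1.

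**Figure D3:**
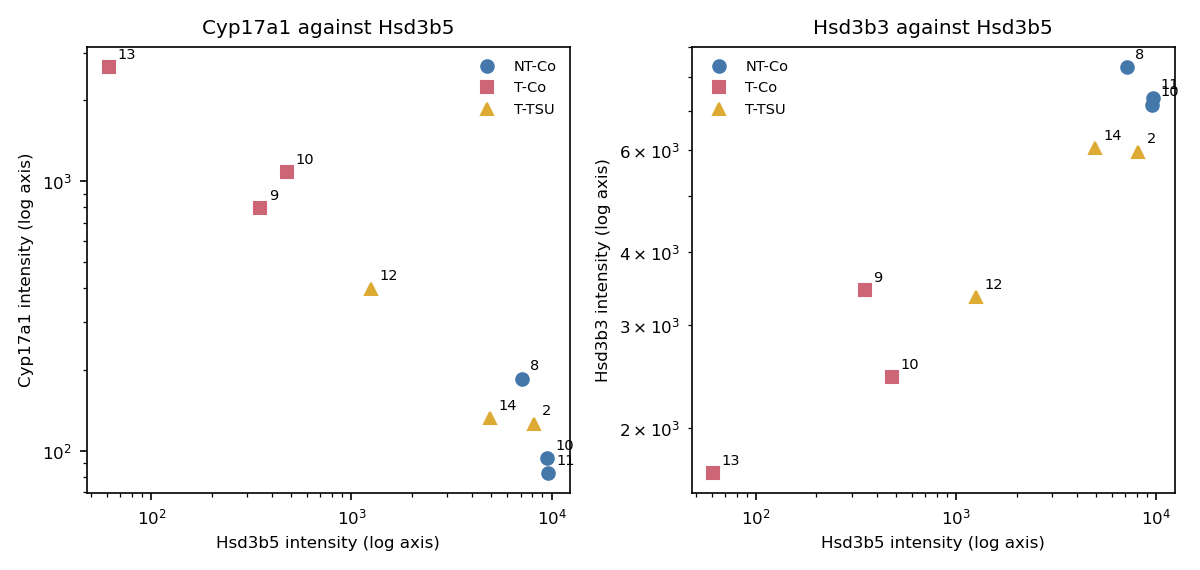
Intensity of Cyp17a1 (left) and Hsd3b3 (right) against Hsd3b5 on the 9 arrays, with log axes, 1 point per array and its replicate number. T-TSU replicate 12 (Hsd3b5 1253, Cyp17a1 399) lies between the other treated arrays and the T-Co arrays in the left panel.

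T-Co replicate 13 also stood apart in the array as a whole, with a second principal component score of 48.1 against −29.9 to 17.5 for the other arrays. The direction of each T-Co to NT-Co difference of the enzymes was the same without it. Summed macrophage and Kupffer cell markers were 8277 to 11387 for NT-Co, 10741 to 15953 for T-Co and 4869 to 10554 for T-TSU. Neutrophil markers summed to 555 to 906, 818 to 2205 and 448 to 862, and endothelial markers to 2321 to 3288, 2857 to 4861 and 2129 to 2957, in the same order. In all 3 lists T-Co replicate 13 was highest and T-Co replicate 10 second highest of the 9 arrays. Single markers did not all follow these sums. From NT-Co to T-Co, mean S100a8 went from 162 to 538 and S100a9 from 190 to 500. Ngp, Camp and Ltf were also higher in T-Co, but Mpo (72.8 to 49.2), Elane (90.1 to 72.9) and Cxcr2 (51.4 to 39.0) were lower. Adgre1 of the macrophage list and Tek and Tie1 of the endothelial list were lower too. The part of these cell types in the differences of the enzymes was not tested. The 7 measured hepatocyte markers (of 8) summed to 187395 to 208683 on NT-Co arrays, 225683 to 232948 on T-Co arrays and 189275 to 208454 on T-TSU arrays. Stellate cell and fibroblast markers summed to 6805 to 7395, 5355 to 6218 and 5997 to 7142, cholangiocyte markers to 202 to 273, 223 to 334 and 169 to 223, and kidney tubule markers to 155 to 312, 239 to 313 and 189 to 311. Hnf4a of the hepatocyte list went against its sum, from a mean of 9494 in NT-Co to 8063 in T-Co. Lrat (46.3 to 88.9) and Des (44.2 to 99.1) went against the sum of the stellate cell and fibroblast list. The other measured markers of these lists went with their sums between NT-Co and T-Co. In whole liver, fewer cells of a type and less RNA per cell cannot be told apart. The ratio of 3′ to 5′ actin signal, a measure of RNA integrity, was 2.72 ± 0.44 on NT-Co arrays, 1.98 ± 0.11 on T-Co arrays and 2.02 ± 0.20 on T-TSU arrays, whereas that of Gapdh was 0.765 ± 0.031, 0.765 ± 0.039 and 0.767 ± 0.075. Its part in the differences between NT-Co and the tumour-bearing groups was not tested. Array medians lay between 107 and 119.

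Around these enzymes, 93 other genes of steroid metabolism were listed, of which 70 had a probe set and 59 passed the filter. In T-Co against NT-Co, 6 rose and 9 fell, beside 4.16% and 2.38% of all probe sets, with a median log2 difference of −0.15. In T-TSU against T-Co, 0 of 59 were called by limma, where 8 of 15838 probe sets were called in all and 1658 had an unadjusted p under 0.05. In T-TSU against NT-Co, 3 rose and 1 fell, beside 2.49% and 1.36% of all probe sets. The calls rest on few arrays: without NT-Co replicate 11, Akr1c20 and Fkbp5 kept their calls for T-Co against NT-Co, and the other 13 had adjusted p between 0.0530 and 0.182. Without NT-Co replicate 8 or 10, 6 and 7 of the 15 calls were lost, and leaving out 1 of the other arrays lost 1 to 5. Of the 4 calls in T-TSU against NT-Co, Hsd3b7 held whichever array was left out. All 4 were lost without the intensity trend (adjusted p 0.0631 to 0.142), and those of Sult1d1 and Fkbp5 with a robust trend. That of Sult1d1 was also lost without a filter (0.0585) and with arrays centred on the median (0.0530). Leaving out NT-Co replicate 11 or T-TSU replicate 12 ended the 3 calls other than that of Hsd3b7, with adjusted p between 0.0549 and 0.172. Leaving out NT-Co replicate 8 or 10 or T-TSU replicate 14 ended those of Sult1d1 and Fkbp5 (0.0513 to 0.150), and leaving out T-Co replicate 9 or 10 ended that of Sult1d1 (0.0519 and 0.0538).

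Among the 5 other Hsd3b-family genes listed, 2 passed the filter, and Hsd3b7, which acts in bile acid synthesis, fell. Its intensity was 16132, 15027 and 17085 on NT-Co arrays, 10819, 7828 and 8109 on T-Co arrays and 10875, 7211 and 7125 on T-TSU arrays, so both tumour-bearing groups lay below NT-Co. The log2 difference was −0.86 ± 0.17 for T-Co (adjusted p = 0.0110) and −0.96 ± 0.17 for T-TSU (adjusted p = 0.00788), each against NT-Co. Nsdhl, a cholesterol synthesis enzyme, read 3946 on T-Co replicate 13 and 405 to 1170 on the other 8 arrays (difference 0.53 ± 0.47, adjusted p = 0.566).

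Of the 10 other 17-beta-hydroxysteroid dehydrogenases tested, 1 rose and 1 fell in T-Co. Hsd17b6, which oxidises androgen metabolites, rose from 2809 ± 299 to 4437 ± 210 (0.66 ± 0.13, adjusted p = 0.0117) and was 4535 ± 684 in T-TSU (0.68 ± 0.13 against NT-Co, adjusted p = 0.0125). Hsd17b11, a lipid-droplet-associated dehydrogenase, fell from 7972 ± 756 to 5400 ± 1215 (−0.58 ± 0.16, adjusted p = 0.0465) and was 7931 ± 809 in T-TSU. The Hsd17b11 call was lost in 11 of 18 alternatives, and its other probe set had the opposite sign. Hsd17b7 (0.51 ± 0.25, adjusted p = 0.247), an enzyme of cholesterol synthesis, and Hsd17b12 (−0.34 ± 0.12, adjusted p = 0.123), an enzyme of fatty acid elongation, did not pass the test.

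Of 9 other steroid reductases and partners of Hsd11b1, 1 fell and 0 rose in T-Co, with a median difference of −0.33. Akr1c20, an aldo-keto reductase, had intensities of 4421, 4563 and 4592 on NT-Co arrays, 2826, 2363 and 2170 on T-Co arrays and 4572, 4115 and 3833 on T-TSU arrays. The T-Co arrays lay below both other groups (−0.89 ± 0.13 against NT-Co, adjusted p = 0.00192). T-TSU differed from T-Co by 0.77 ± 0.13 with an adjusted p of 0.0593. Akr1c6, a liver 17-beta-hydroxysteroid dehydrogenase (−0.58 ± 0.20, adjusted p = 0.111), Akr1c14, a 3-alpha-hydroxysteroid dehydrogenase (−0.49 ± 0.15, adjusted p = 0.0785), and the 5-beta-reductase Akr1d1 (0.61 ± 0.22, adjusted p = 0.127) did not pass the test. The other probe set of Akr1d1 had the opposite sign.

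Of 5 genes of hormone synthesis from cholesterol tested, 1 fell. Cyb5b, the cytochrome b5 of the mitochondrial outer membrane, went from 4830 ± 539 in NT-Co to 2875 ± 355 in T-Co (−0.75 ± 0.16, adjusted p = 0.0158). Star, which delivers cholesterol to mitochondria, Cyp21a1, the 21-hydroxylase, and Fdx1, the electron donor of mitochondrial P450 enzymes, had adjusted p between 0.235 and 0.847. Star averaged 56.1 ± 26.2 in NT-Co and 54.0 ± 52.8 in T-Co, close to the filter intensity. The other probe set of Cyp21a1 and 1 of the other probe sets of Star had the opposite sign.

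Of 12 hepatic steroid hydroxylases tested, 2 rose and 0 fell in T-Co. Cyp39a1, an oxysterol 7-alpha-hydroxylase, read 106, 87.3 and 98.0 on NT-Co arrays, 332, 262 and 1245 on T-Co arrays and 119, 231 and 129 on T-TSU arrays. The T-Co arrays lay above all the others (2.21 ± 0.46, 4.64-fold, adjusted p = 0.0150), and the fold was 2.89 without T-Co replicate 13. Cyp3a13, a drug- and steroid-oxidising P450, rose from 1288 ± 206 to 2582 ± 715 (0.98 ± 0.23, adjusted p = 0.0247). Cyp7b1, another oxysterol 7-alpha-hydroxylase, read 13150 ± 1382 in NT-Co and 6086 ± 1554 in T-Co (−1.14 ± 0.31, adjusted p = 0.0503), and its T-TSU values were 14171, 5171 and 13130, with replicate 12 low. Cyp2d9, a male-enriched testosterone hydroxylase, differed by −0.27 ± 0.11 (adjusted p = 0.188).

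Conjugating enzymes held 7 of the 15 calls among 12 genes tested, with a median difference of −0.46. The sulfotransferases Sult1a1 (10657 ± 1082 to 16989 ± 2137, 0.67 ± 0.14, adjusted p = 0.0162) and Sult1d1 (2454 ± 538 to 6121 ± 1074, 1.32 ± 0.26, adjusted p = 0.0110) rose. All 5 that fell belong to glucuronidation. The glucuronosyltransferases Ugt2b1 (20670 ± 2047 to 9458 ± 4423, −1.27 ± 0.31, adjusted p = 0.0302) and Ugt2b34 (9432 ± 129 to 6599 ± 859, −0.52 ± 0.12, adjusted p = 0.0210) were named by the rule. The other 3, named after their values were seen, were Ugt2b5 (−0.45 ± 0.12), Ugt2b37 (−1.20 ± 0.33) and Ugdh (−0.50 ± 0.14), which makes the glucuronic acid donor, with adjusted p between 0.0453 and 0.0486. Ugt2b37 was dim, at 126 ± 32.2 in NT-Co and 50.3 ± 10.6 in T-Co, close to the filter intensity of 36.2. The stricter of the other filters left it out. Ugt2b5 and Ugdh each lost their call in 11 of 18 alternatives, and Ugt2b37 in 10 of 17. Ugt2b1 lost it in 6 of 18 and Ugt2b34 in 5 of 18. In T-TSU, Sult1d1 remained above NT-Co (1.04 ± 0.26, adjusted p = 0.0460), a call lost in 11 of 18 alternatives, and Sult1a1 averaged 10301 ± 1846.

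Of 9 steroid receptors, sensors and carriers tested, 1 rose in T-Co and 0 fell. Fkbp5, a co-chaperone of steroid receptors whose gene is induced by glucocorticoids, read 509, 400 and 419 on NT-Co arrays, 1557, 2175 and 2743 on T-Co arrays and 653, 2293 and 1911 on T-TSU arrays. Both tumour-bearing groups lay above NT-Co, and T-TSU replicate 2 was the closest to it. Fkbp5 rose by 2.24 ± 0.37 in T-Co (adjusted p = 0.00454) and by 1.67 ± 0.37 in T-TSU (adjusted p = 0.0263) against NT-Co. The xenobiotic sensors Nr1i2 (0.34 ± 0.19) and Nr1i3 (0.41 ± 0.13) and the co-chaperone Fkbp4 (−0.43 ± 0.19) had adjusted p between 0.0877 and 0.328 in T-Co, and the other probe set of Fkbp4 had the opposite sign.

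**Figure D4:**
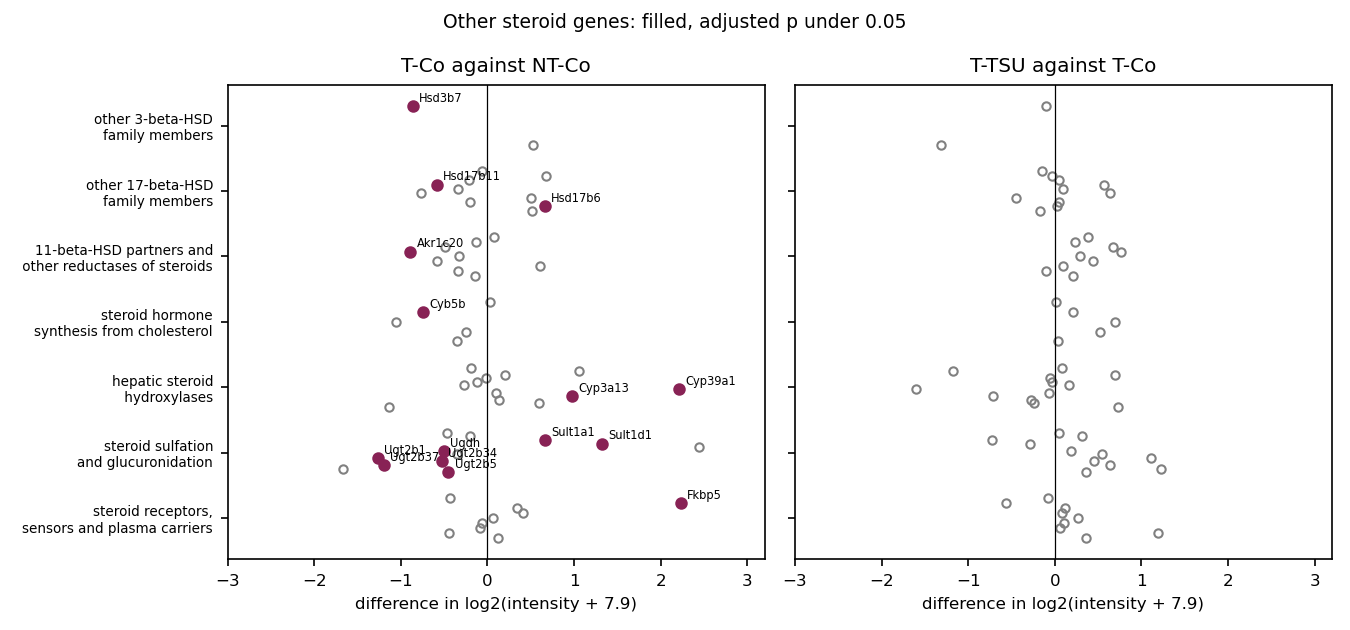
Difference in log2(intensity + 7.92) of the 59 other steroid genes tested, by list, for T-Co against NT-Co (left) and T-TSU against T-Co (right), with 1 point per gene. Filled points passed an adjusted p of 0.05, which 15 genes did on the left and 0 on the right.

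The genes most like each enzyme were ranked by Pearson r over the 9 arrays among 14543 other single-gene probe sets. For Hsd3b5 they were Gstm6 (0.991), Ugt2b5 (0.978), Alas2 (0.974) and Ivd (0.974). Gstm6, a glutathione transferase, averaged 2162 ± 152 on NT-Co arrays, 715 ± 293 on T-Co arrays and 1659 ± 506 on T-TSU arrays. For Cyp17a1 they were Trip12 (0.994), Agt (0.974), Mat1a (0.973) and Cp (0.969). Agt, which encodes angiotensinogen, averaged 7795 ± 110, 13531 ± 1983 and 8596 ± 1802 in the same order of groups.

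Hsd3b3 was most like Cyp4v3 (0.981), Ugt3a1 (0.978), Cpt2 (0.977) and Nudt7 (0.975), and Hsd3b2 was most like Abcg2 (0.970), Decr1 (0.963), Gna14 (0.962) and Nat8 (0.960). Hsd11b1 was most like Car3 (0.983), Car1 (0.976), Ces1f (0.974) and Cyp4a12a (0.974). Car3, a carbonic anhydrase, averaged 19548 ± 4642 on NT-Co arrays, 6682 ± 5427 on T-Co arrays and 18929 ± 4793 on T-TSU arrays. Hsd17b2 was most like Coq8a (0.969), Plin2 (0.968), Ccnh (0.967) and Mtmr9 (0.965). Coq8a, a mitochondrial kinase-like protein of coenzyme Q synthesis, averaged 3951 ± 217 on NT-Co arrays, 1180 ± 246 on T-Co arrays and 1106 ± 315 on T-TSU arrays, with both tumour-bearing groups below NT-Co as for Hsd17b2. These coefficients describe 9 arrays that share the group differences.

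**Figure D5:**
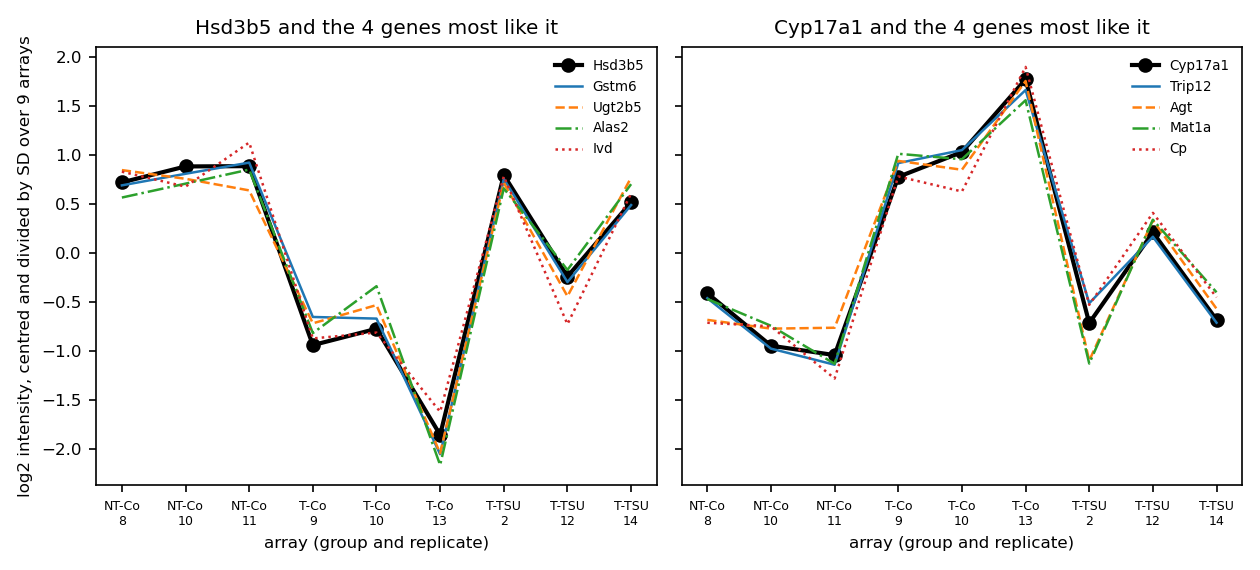
Log2 intensity, centred and divided by its SD over the 9 arrays, of Hsd3b5 (left) and Cyp17a1 (right) with the 4 genes of highest Pearson r to each. The lines join arrays only to guide the eye, and the curves share the low (left) or high (right) values of the T-Co arrays and the displaced T-TSU replicate 12.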

How the data were processed

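Total mouse liver RNA was hybridised to 9 arrays after labelling 5 µg per array with a one-cycle biotin kit, per the labels' protocols. The deposited intensity values are on a linear scale, and every array has the same trimmed mean of 500.3 (2% trimmed at each end), so the authors had scaled the arrays. No source used here names the software. Of 22690 probe sets, 64 were controls, 20380 were annotated to 1 gene, 691 to several and 1555 to none.

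A pseudocount of 7.92, the 10th percentile of the deposited values, was added before taking log2. Probe sets with a mean under the 30th percentile (intensity 36.2) were left out, which removed 6788 and kept 15838. The 3 group means were estimated together from the 9 arrays by limma 3.58.1 under R 4.3.3, with a moderated two-sided test, an intensity trend and Benjamini-Hochberg adjustment over all probe sets. Adjusted p-values under 0.05 were called. The code was tested on simulated data.

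The enzymes and gene lists were chosen with earlier results of these data known. The brightest probe set stood for each listed gene. The up to 4 genes of each list with the smallest p in T-Co against NT-Co were named, and the 4 genes with the highest r to each enzyme. Promoters are from RefSeq, build GRCm38.p6, matched by symbol for 5 of the 7 enzymes and aligned with Biopython 1.88. The array files hold no coordinates. The p-values set differences of group means against the spread between arrays of a group. The labels do not state that arrays are separate animals, so it is not known whether that is a spread between animals. The small number of arrays limits the precision. No 2 arrays held identical values (0 pairs). Alternatives were 2 other pseudocounts, 2 other filters, 2 scalings, 2 variance models, a fit to the compared groups alone, and leaving out each array.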

Additional observations from a re-analysis of the deposited data

How the results depend on the processing

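With 3 arrays per group, counts of calls moved with the variance model and with single arrays. The 1036 calls of T-Co against NT-Co became 473 without the intensity trend and 445 to 1017 when 1 array was left out. The 609 calls of T-TSU against NT-Co became 265 and 287 to 793. The 8 calls of T-TSU against T-Co became 25 with a pseudocount of 32, 14 with a robust trend, 1 with quantile normalization and 0 without a filter, with arrays centred on the median, without the intensity trend or with only the compared groups. They ranged from 0 to 58 when 1 array was left out, 58 being without T-TSU replicate 12. In limma, 1658 probe sets had an unadjusted p under 0.05 in that comparison.

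The enzymes were chosen on these contrasts, so calls that held show no independent stability. For T-Co against NT-Co, their 5 calls and 6 signs were the same in 18 alternatives. The Hsd3b2 call in T-TSU against T-Co held in 8 of 18, and the Hsd17b2 call in T-TSU against NT-Co in 17 of 18. Signs differed only for small differences, namely Hsd11b1 (4 of 18) and Hsd3b2 (2 of 18) in T-TSU against NT-Co, and Hsd17b2 (1 of 18) in T-TSU against T-Co. Of the 15 calls among other steroid genes in T-Co against NT-Co, 12 were lost without the intensity trend, as were all 4 in T-TSU against NT-Co. The cause of these changes was not tested. Each enzyme had 1 probe set, so the use of another could not be run. No paired analysis was run because the labels give no pairing between arrays of different groups.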
